A study of Homo sapiens with 2 samples.

Results

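Among the genes listed in the deposited RNA-seq table of NAT10 knockout A549 cells, 40 encode solute carriers, ABC transporters or ion channels. They were taken from the 1415 listed genes by biotype and name: a protein-coding gene whose symbol begins with the prefix of a solute carrier (SLC, SLCO), an ABC transporter (ABCA, ABCB, ABCC, ABCG), a P-type or V-type ATPase, a potassium, calcium, sodium or chloride channel, an anoctamin, a TRP channel, an aquaporin or a connexin. The names did not use any expression value, but the table itself holds only genes past the authors' threshold on fold change and p-value, so every member had to differ between the libraries and only its direction and size were free. A549 is an established human line of lung adenocarcinoma. The control cells were unmodified A549 cells, and the knockout cells were 1 single-cell clone in which CRISPR/Cas9 with a pair of guides removed part of NAT10, the enzyme that writes N4-acetylcytidine (ac4C) on RNA. Each group had 1 library of total RNA, which leaves every difference without a replicate check, and the effect of the knockout cannot be told apart from that of picking a clone.

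Solute carriers move sugars, amino acids, ions and other small molecules across membranes by facilitated or coupled transport, whereas ABC transporters spend ATP to export their substrates. Ion channels open a pore through which ions flow down their gradient, and auxiliary subunits set how the pore opens and where it sits in the membrane. In airway and alveolar epithelium such proteins carry fluid, bicarbonate and nutrients, and several of the genes below are better known from neurons, liver or kidney.

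The families differed in how many of their genes were listed. Of 386 annotated solute carrier genes 19 were in the table (4.92%), of 37 ABC transporter genes 3 (8.11%), and of 97 potassium channel genes 9 (9.28%). The table also held 3 calcium channel genes, 2 anoctamins and 2 TRP channels, among others. It held 0 of 63 ATPase genes, 0 of 15 chloride channel genes and 0 of 13 aquaporins with the chosen prefixes. Since only 4.0% of all annotated protein-coding genes were listed, counts in families this small are not read as traits of the families. Together, 40 of 707 annotated genes were listed, or 5.66%, against 4.0% of all protein-coding genes in the annotation. How many genes of each family were expressed at all was not measured here, because genes outside the table were not analysed.

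ac4C has been described on stretches of mRNA in which cytidines recur with a period of 3 bases, and the study looked for such repeats at its sites. The coding sequences of the 40 members were therefore searched on the sense strand for CNNCNNCNNCNN, with N any base, and the longest unbroken run of this kind in each is a property of the reference sequence that the choice of genes did not use. The runs of 5 genes that carry the results below are shown, 5′ to 3′, from GENCODE release 29 on GRCh38, with the periodic C in capitals. All lie in coding exons, because only coding sequence was searched.

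SLC2A3: CttCacCggCttCctCat
SLC8A1: CtcCctCcaCtgCcaCtg
SLC40A1: CtcCtaCtaCaaCca
CACNA1G: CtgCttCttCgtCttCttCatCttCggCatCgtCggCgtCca
KCNK3: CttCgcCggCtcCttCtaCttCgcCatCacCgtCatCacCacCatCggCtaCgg

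The SLC2A3 run, with 6 periodic C, lies in exon 10 on the minus strand at chr12:7921585-7921602. That of SLC8A1, also with 6, is in exon 1 on the minus strand at chr2:40428696-40428713, and that of SLC40A1, with 5, in exon 7 on the minus strand at chr2:189564072-189564086. The ion channel genes shown had longer runs: 14 in CACNA1G (exon 5, plus strand, chr17:50571942-50571983) and 18 in KCNK3, whose run spans the junction of exons 1 and 2 (plus strand, chr2:26693112-26727673 with the intron). This contrast holds for the 5 genes picked, not for channels and carriers in general. The channel gene KCNQ5 had a run of 6, and the carrier genes SLC45A1 and SLCO2B1 had runs of 11. A run of 4 or more was present in 39 of 40 members, but also in 95.5% of the coding sequences of all listed protein-coding genes. The median longest run was 7 in 23 members with lower RPKM and 8 in 17 members with higher RPKM, and it was 7 over all listed protein-coding genes. Matches per kb of coding sequence had the opposite order, with a median of 17.483 in lower and 10.183 in higher members. Over all members this median was 14.093, against 10.998 over listed protein-coding genes. Whether either measure went with direction was not tested. Coding sequences of the members were longer, with a median of 1959 bases against 1464. A match is a description of the sequence, since ac4C was not measured in these libraries.

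Members lower and higher in the knockout were about as many as in the table as a whole. RPKM, a read number corrected for the size of the gene and of the library, was lower in the knockout for 23 of the 40 members (57.5%) and higher for 17. The same share was 57.0% over all 1415 listed genes and 61.4% over 798 listed protein-coding genes, so the direction of the members is near the background. On the scale of log2(RPKM + 1), on which a pseudocount of 1 RPKM damps the change of low genes, 1 member was lower by more than 1 and 0 were higher by more than 1. Over the listed protein-coding genes these shares were 12.2% and 4.64%. The median difference was -0.19 over members and -0.32 over listed protein-coding genes. Genes with at most 3 reads in a library were set at their fold against 3 reads, with no pseudocount, in an alternative that gave a median log2 ratio of -0.85 over the members.

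The members were expressed at low levels. Their median of mean RPKM was 0.383, against 0.621 over listed protein-coding genes, and the highest RPKM of any member was 6.52. Whole reads behind the RPKM could be recovered for 38 of the 40. These added up to 1062 control and 1021 knockout reads, of effective library sizes of 6077933 and 5474964. In the table's protein-coding genes the sums were 46900 and 29168. At this depth 16 of the 38 members had fewer than 20 reads over both libraries, and 64.9% of the listed protein-coding genes with reads had at least 20. Of those 16, 12 were lower in the knockout and 4 higher, whereas of the 22 members with at least 20 reads 10 were lower and 12 were higher. Over the 500 listed protein-coding genes with at least 20 reads 314 were lower (62.8%), and over all 798 listed protein-coding genes 490 (61.4%). The share under 20 reads was not computed, and whether direction went with read number was not tested. Among knockout values 8 of 40 were listed at 0, and among control values 1 of 40 was, that of SLC37A2. Over listed protein-coding genes 82 of 798 (10.3%) were at 0 in the knockout and 32 of 798 (4.01%) in the control. The median difference over the 22 members with at least 20 reads was 0.32, against -0.48 over 500 listed protein-coding genes with at least 20 reads. The table leaves an empty band around 0, so such a median turns on which side holds more genes, here 12 against 10. The value for members lies between SLC25A53 (0.31) and KCNMB3 (0.32), the smallest of the 12 higher differences.

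**Figure D1:**
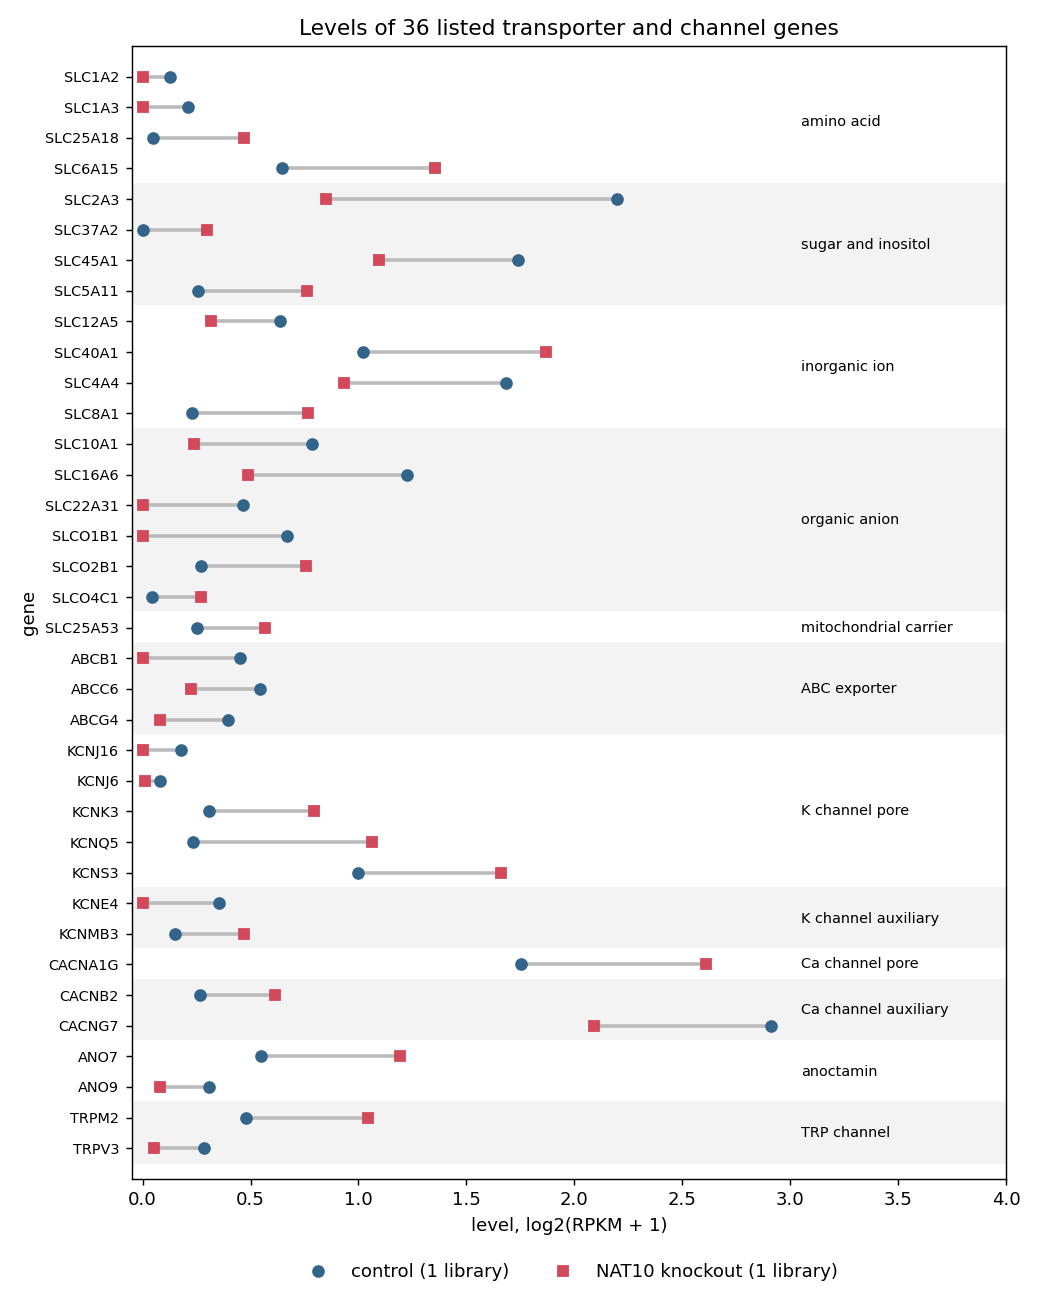
Level of each member as log2(RPKM + 1) on the horizontal axis, with 1 gene per line for 36 of the 40 members, grouped by what the protein carries. Circles are the control library and squares the knockout library, with 1 library each and no error bar, and CACNG7 is the highest circle (6.52 RPKM) and CACNA1G the highest square (5.10 RPKM).

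Counting error was expressed as a 95% Clopper-Pearson interval of the knockout share of a gene's reads, given as a log2 ratio of levels. It covers neither biological nor library-to-library variation. Where a library had 0 reads, the fold given below sets that library at a floor of 3 reads and takes the reads of the other as exact, and the interval, which also covers the error of the latter, allows a smaller fold. In 33 of 38 members the interval excluded 0 (81.3% of listed protein-coding genes with reads), below it in 18 and above it in 15. Over 770 listed protein-coding genes with reads, 49.1% had an interval below 0 and 32.2% above 0, and since the table was limited to changed genes such intervals had to be frequent. The 5 members whose interval held 0 were KCNJ6, KCNJ16, SLC10A1, ANO9 and SLCO4C1, with 5 to 11 reads each over both libraries.

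**Figure D2:**
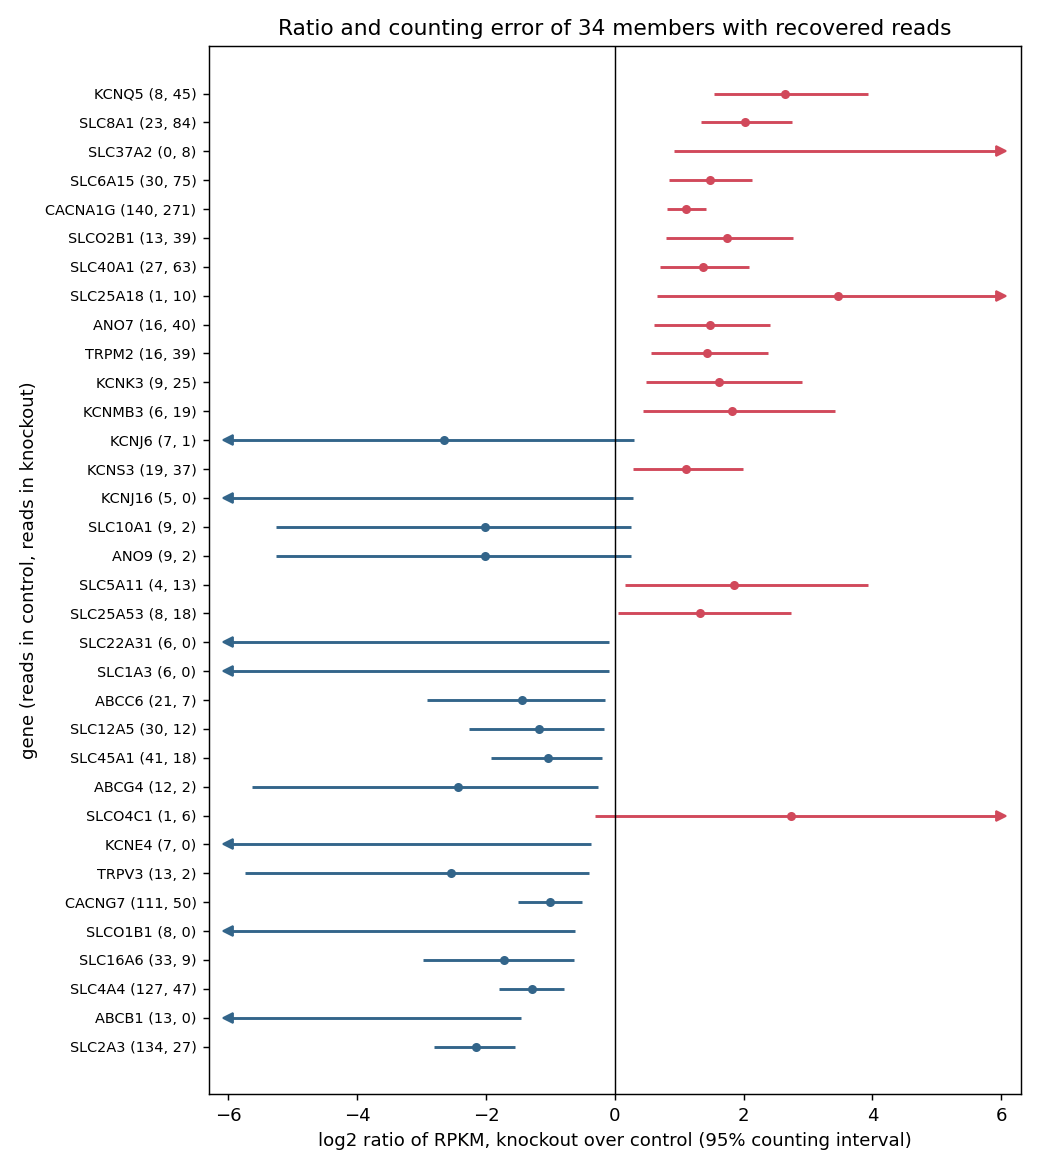
Log2 ratio of RPKM, knockout over control, for 34 of the 38 members with recovered reads, with points for the ratio and lines for its 95% counting interval, blue for lower and red for higher genes. Arrows mark intervals that run past the axis, a line without a point is a gene with 0 reads in a library, and the narrowest interval is that of CACNA1G, from 0.80 to 1.41.

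Of the sugar and inositol carriers, SLC2A3 differed most in log2(RPKM + 1). SLC2A3 (ENSG00000059804, chromosome 12, 7919230 to 7936275, minus strand on GRCh38), the high-affinity glucose transporter GLUT3, stood at 3.58 RPKM in control cells against 0.801 in knockout cells (134 and 27 reads). It was 4.47-fold lower, and its log2 ratio of -2.16 had an interval from -2.81 to -1.56. Of the 40 members SLC2A3 alone was past 1 in log2(RPKM + 1), with a difference of -1.35. SLC2A3 has a near-identical paralog, SLC2A14, so its reads are uncertain to the extent that the counting could split them. SLC45A1, a proton-coupled sugar transporter, was lower as well, at 2.34 and 1.14 RPKM from 41 and 18 reads, with an interval from -1.92 to -0.21. The other members of this group were higher and rested on few reads. SLC5A11, which takes up myo-inositol with sodium, had 4 control and 13 knockout reads, with an interval from 0.16 to 3.93. SLC37A2, an exchanger of sugar phosphates in the endoplasmic reticulum, had 0 and 8 reads, at least 2.96-fold higher against a floor of 3 reads in the control, with 0.92 as the nearer limit of its interval.

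Of 4 amino acid carriers 2 were lower and 2 higher. SLC1A2 and SLC1A3, which clear glutamate from outside the cell, were both listed at 0 in the knockout. In the control SLC1A2 had an RPKM of 0.0934 (its reads could not be recovered), and SLC1A3 an RPKM of 0.158 from 6 reads. The SLC1A3 level was at least 1.80-fold lower against a floor of 3 knockout reads, and the nearer limit of its interval was -0.085. SLC6A15, a sodium-coupled transporter of neutral amino acids, was higher. It reached 0.562 RPKM in control cells and 1.56 in knockout cells (30 and 75 reads), 2.78-fold higher with an interval of the log2 ratio from 0.84 to 2.13. SLC25A18, a glutamate carrier of the mitochondrial inner membrane, had 1 control and 10 knockout reads, with an interval from 0.66 to 8.91. An antisense gene shares 11% of the SLC25A18 exon bases. SLC25A53, a mitochondrial carrier whose substrate is not established, was at 0.192 and 0.480 RPKM from 8 and 18 reads, with an interval from 0.05 to 2.73.

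The carriers of inorganic ions held some of the best-covered members, with 2 lower and 2 higher. SLC4A4 (ENSG00000080493, chromosome 4, 71062667 to 71572087, plus strand) encodes the electrogenic sodium bicarbonate cotransporter. It stood at 2.21 RPKM in control cells against 0.910 in knockout cells (127 and 47 reads), 2.43-fold lower with an interval from -1.80 to -0.79. SLC12A5, the potassium chloride cotransporter of neurons, had 0.554 and 0.246 RPKM from 30 and 12 reads, with an interval from -2.27 to -0.16. Its antisense gene SLC12A5-AS1 was also listed, with 13 control and 2 knockout reads. The higher genes handle calcium and iron. SLC8A1 (ENSG00000183023, chromosome 2, 40097270 to 40611053, minus strand), the sodium calcium exchanger NCX1, stood at 0.173 RPKM in control and 0.70 in knockout cells (23 and 84 reads). It was 4.05-fold higher with an interval from 1.34 to 2.75, and its antisense gene SLC8A1-AS1, with 3 and 11 reads, was listed as higher too. Exons of SLC8A1-AS1 share 9.31% of the SLC8A1 exon bases, and without knowing whether strand was used in counting, reads of such pairs cannot be told apart. SLC40A1 (ENSG00000138449, chromosome 2, 189560579 to 189583758, minus strand) encodes ferroportin, the exporter of cellular iron. It reached 1.03 RPKM in control cells and 2.66 in knockout cells (27 and 63 reads), 2.59-fold higher with an interval from 0.70 to 2.08.

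Organic anion carriers were lower in 4 of 6 cases, beside 61.4% of listed protein-coding genes. SLC16A6, a monocarboxylate transporter, stood at 1.34 RPKM in control cells against 0.405 in knockout cells (33 and 9 reads), 3.30-fold lower with an interval from -2.97 to -0.63. The remaining lower genes are known from liver or have no assigned substrate. SLCO1B1, a hepatocyte uptake carrier of organic anions, had 8 and 0 reads, at least 2.40-fold lower against a floor of 3 knockout reads, with a nearer limit of -0.62. SLC22A31 had 6 and 0 reads, and SLC10A1, the bile acid uptake carrier of hepatocytes, had 9 and 2 reads with an interval from -5.27 to 0.25. Among the SLCO genes the directions were mixed. SLCO2B1, a broadly expressed organic anion carrier, was at 0.207 RPKM in control cells and 0.688 in knockout cells (13 and 39 reads), 3.33-fold higher with an interval from 0.80 to 2.77. SLCO4C1 had 1 and 6 reads, and its interval, from -0.31 to 8.26, held 0.

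All 3 listed ABC transporters were lower in the knockout, as were 61.4% of listed protein-coding genes. ABCB1 (ENSG00000085563, chromosome 7, 87503633 to 87713323, minus strand) encodes P-glycoprotein, the multidrug efflux pump. It had an RPKM of 0.368 in the control, from 13 reads, and 0 in the knockout, at least 3.90-fold lower against a floor of 3 reads. The nearer limit of its interval was -1.46. ABCC6, an efflux pump of the liver that is needed to keep soft tissue from calcifying, was at 0.456 and 0.169 RPKM from 21 and 7 reads, with an interval from -2.91 to -0.15. Near-identical ABCC6 pseudogenes lie on the same chromosome, so its reads are uncertain. ABCG4, which exports sterols, had 12 and 2 reads and an interval from -5.64 to -0.27. Of these 3, only ABCC6 reached 20 reads over both libraries.

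Voltage-gated potassium channel genes included KCNQ5, which had the highest ratio of knockout to control RPKM among members with at least 20 reads. KCNQ5 (ENSG00000185760, chromosome 6, 72621792 to 73198851, plus strand) encodes a pore subunit of the slow M-type current. It reached 0.174 RPKM in control cells and 1.09 in knockout cells (8 and 45 reads), 6.24-fold higher with an interval of the log2 ratio from 1.54 to 3.94. KCNS3, a subunit that is silent alone and modifies other voltage-gated channels, had 0.998 and 2.16 RPKM from 19 and 37 reads, with an interval from 0.28 to 1.99.

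Potassium channels of other types were also split. KCNK3, the acid-sensitive leak channel TASK-1, was at 0.238 RPKM in control cells and 0.734 in knockout cells (9 and 25 reads), with an interval from 0.48 to 2.91. The inward rectifiers KCNJ6, with 7 and 1 reads, and KCNJ16, with 5 and 0, were listed as lower, but both intervals held 0. Of the auxiliary subunits, KCNE4 had 7 and 0 reads, at least 2.10-fold lower against a floor of 3 knockout reads, with a nearer limit of -0.38. KCNMB3, a beta subunit of the large-conductance calcium-activated channel, had 0.110 and 0.386 RPKM from 6 and 19 reads, with an interval from 0.43 to 3.43. Exons of another gene on the opposite strand share 37.9% of the KCNMB3 exon bases, so without known strand handling the KCNMB3 value is uncertain. Over all pore subunits of potassium channels 4 were lower and 3 higher.

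Calcium channel genes had the highest RPKM of any member in each library, CACNG7 in the control and CACNA1G in the knockout. CACNA1G (ENSG00000006283, chromosome 17, 50561068 to 50627474, plus strand) encodes the pore of the low-voltage-activated T-type calcium channel Cav3.1. It stood at 2.37 RPKM in control cells against 5.10 in knockout cells (140 and 271 reads), the highest number of reads of any member. It was 2.15-fold higher with an interval from 0.80 to 1.41, and the difference in log2(RPKM + 1) was 0.85, equal to that of SLC40A1 at this rounding, and no member was higher by more on that scale. CACNG7 (ENSG00000105605, chromosome 19, 53909335 to 53943941, plus strand), an auxiliary gamma subunit that also binds glutamate receptors, had 6.52 and 3.26 RPKM from 111 and 50 reads, with an interval from -1.51 to -0.51. Its level was 2.00-fold lower, near the smallest fold in the table. The order of the top levels differed between the libraries. In the control CACNG7, at 6.52 RPKM with an exact Poisson interval from 5.37 to 7.85, stood above CACNA1G, whose interval was 2.00 to 2.80. In the knockout CACNA1G, with an interval from 4.51 to 5.74, stood above CACNG7, with one from 2.42 to 4.30. CACNB2, a beta subunit of high-voltage-activated channels, had 0.201 and 0.531 RPKM, with reads that could not be recovered.

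TRP channels and anoctamins had 2 listed genes each. TRPM2, a calcium-permeable channel opened by ADP-ribose under oxidative stress, stood at 0.393 RPKM in control cells against 1.06 in knockout cells (16 and 39 reads), 2.71-fold higher with an interval from 0.56 to 2.37. TRPV3, a warmth-gated channel of keratinocytes, had 13 and 2 reads with an interval from -5.74 to -0.41. Of the anoctamins, ANO7 was higher, and ANO9 was listed as lower with an interval that held 0. ANO7, best known from prostate epithelium, had 0.462 and 1.28 RPKM from 16 and 40 reads, with an interval from 0.60 to 2.41. ANO9 had 9 and 2 reads, with an interval from -5.27 to 0.25.

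**Figure D3:**
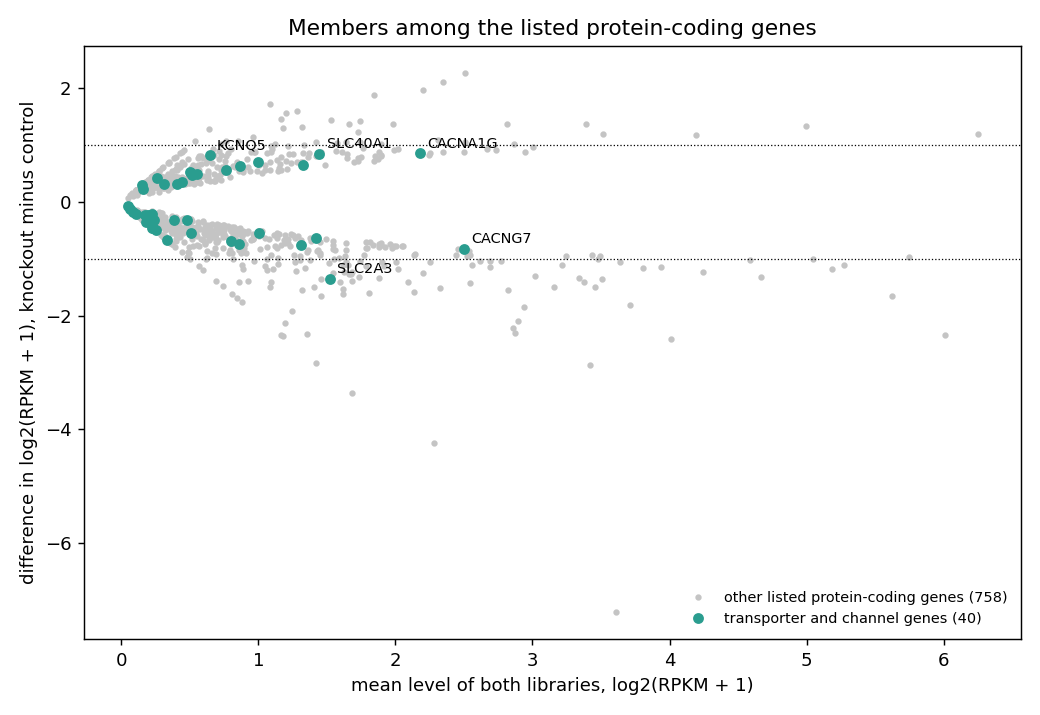
Difference in log2(RPKM + 1), knockout minus control, against the mean level of both libraries for the 798 listed protein-coding genes, with the 40 members as large points. Dotted lines mark a difference of 1 in size, past which only SLC2A3 lies among the members, and the empty band around 0 follows from the limit of the table.

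The chromosome of a member went with its direction on chromosome 2. Of 6 members there, SLC8A1, SLC40A1, KCNS3, KCNK3 and ANO7 were higher and KCNE4 was lower. Over all listed protein-coding genes of chromosome 2, 76.2% were higher in the knockout, and on the other chromosomes 35.4% were. Without chromosome 2, 22 members were lower and 12 higher. What part the chromosome had in any member's difference was not tested.

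**Figure D4:**
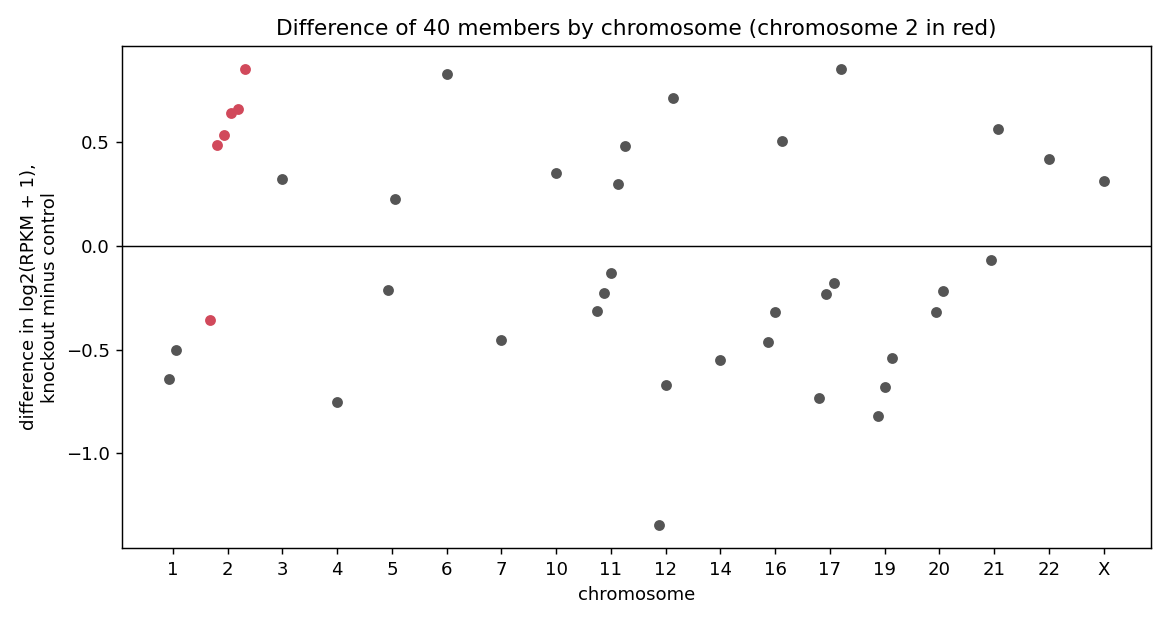
Difference in log2(RPKM + 1), knockout minus control, for the 40 members by chromosome, with 1 point per gene and chromosome 2 in red. Of the 6 points on chromosome 2, 5 lie above 0, from 0.49 to 0.85.

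Other genes of transport, which the prefixes leave out, were looked up from a list of 238 annotated genes. Of these, 16 were in the table, 8 lower and 8 higher, whereas 61.4% of listed protein-coding genes were lower. Of all annotated protein-coding genes 4.0% were listed. The median difference was 0.05 in log2(RPKM + 1), which falls between the lower and the higher genes and describes neither. The interval excluded 0 in 11 of the 16, beside 81.3% of listed protein-coding genes with reads. Among ligand-gated channel genes, CHRND, GABRA3, GRIA3, GRIN2B, GRIN3A and P2RX5 had intervals above 0, as did 32.2% of listed protein-coding genes with reads. The interval of GABRQ, listed as higher, and that of GRID1, listed as lower, held 0, and GRIK2, listed as lower, had no recovered reads. GRIN2B, an NMDA-type glutamate receptor subunit, had 0.394 RPKM in control cells and 1.07 in knockout cells (74 and 181 reads), with an interval from 1.04 to 1.85. P2RX5, an ATP-gated channel, had 8 and 27 reads, and GABRA3, a subunit of GABA receptors, 18 and 45. Lower genes included PIEZO2, a mechanically gated channel, with 41 and 14 reads, and FXYD2, a regulator of the sodium pump, with 13 and 2. These examples were chosen after their values were seen.

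Of 14 markers of alveolar and A549 cells 0 were among the 1415 genes used here, and NAT10 itself was not analysed here, so neither the knockout nor the cell identity could be checked on these values. In a bulk library, fewer cells with a transcript and less of it per cell cannot be told apart. Exons of other genes overlapped those of 15 members, with more than 10% of the exon bases shared with a single other gene in KCNMB3, SLC25A18 and SLCO1B1. In CACNB2 a pair of genes on the opposite strand shared 4.76% and 8.29%.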

How the data were processed

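RNA-seq was done on total RNA from unmodified A549 cells and from 1 NAT10 knockout clone, with 1 library each, grouped by title. The authors deposited RPKM for each gene and library, on build hg38 per the submitters' processing notes. The aligner, annotation, counting tool and strand handling are not given in the sources used here. The deposited table also holds the authors' fold changes, p-values and adjusted p-values, which were not used. The authors kept only genes whose log2 fold change exceeded 1 in either direction at p under 0.05. On the RPKM used here the smallest size of a log2 ratio was 0.991, so a listed gene can fall just short of that limit.

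RPKM times the merged exon length of GENCODE release 29 gave whole reads, within 0.02 of a whole number, in both libraries for 1343 of 1408 genes with a length (95.4%), at the effective library sizes at which most genes came out whole. For 32 further genes the RPKM ratio fixed a pair of whole numbers at a length within 10% of the annotation. Of the members, 36 had reads by length and 2 by ratio. Intervals and floors cover counting error only, since reads carry no molecular identifiers. Differences are log2(RPKM + 1), and log2 ratios and folds use RPKM without a pseudocount. No test was run, since 1 library per group gives no spread. The rule for genes to be given in full was at least 20 reads over both libraries and, in a family with none, the best covered gene. Members with fewer reads, among them ABCB1, are also described one by one, outside that rule. Of the members, 4 are not reported here by name, and counts over members include them. The members and lists were chosen with earlier results of these data known. Recovery and intervals were tested on simulated data to which no limit on fold or p-value was applied. How often the intervals cover the true ratio among genes kept by such a limit was not tested. The work used Python 3.11.15, numpy 2.4.6, pandas 2.3.3 and scipy 1.17.1.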

Additional observations from a re-analysis of the deposited data

How the results depend on the processing

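A pseudocount of 0.1 RPKM left 16 members lower and 16 higher by more than 1, and with 5 RPKM 0 were lower by more than 1. A pseudocount pulls low genes toward 0 by construction. The median difference was -0.96 with a pseudocount of 0.1 RPKM, -0.041 with 5 RPKM, -0.54 over members with a mean RPKM of at least 1, and -0.85 with no pseudocount and folds against 3 reads. A mean RPKM of at least 1 left 5 lower and 4 higher members, and at least 20 reads left 10 lower members, both by removing low genes. The counts kept within 1.5 times under the other settings run. Of 46 single-gene settings, 41 moved a value by less than its counting error. The exceptions were SLC2A3 with both pseudocounts, KCNQ5 and SLC8A1 with 0.1 RPKM and CACNA1G with 5 RPKM. The settings on chromosome 2, on at least 20 reads and on 3 reads as a floor were chosen after seeing the data. Scaling to library totals was not run, since RPKM gives only effective sizes. No paired analysis was possible because each group had 1 library.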

Other observations

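Some members had a listed neighbour within 1 Mb that was listed at 0 in the knockout. SLC6A15, with 30 and 75 reads, stands near NTS, with 58 control reads and 0 knockout reads. SLC25A53, with 8 and 18 reads, is likewise near TCEAL8, with 69 and 0 reads. Both pairs were chosen after their values were seen.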
